A study of Mus musculus with 59 samples.

Results

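The Wnt/β-catenin target genes *Axin2*, *Sp5* and *Nkd1* and the genes of the 4 TCF/LEF factors, *Lef1*, *Tcf7*, *Tcf7l1* and *Tcf7l2*, were followed by RNA-seq in mouse embryonic stem cells (ESCs) and in embryoid bodies (EBs) made from them. They were chosen by symbol, as readouts and DNA-binding factors of 1 pathway, with earlier results of these data known. They are 7 of the 24391 genes listed for each library. All 7 passed into the tests, since a gene was left out only where it was listed at 0 in every library of a line.

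In canonical Wnt signalling a secreted Wnt ligand bound by Frizzled and LRP receptors stops a complex of Axin, APC, casein kinase and GSK3 from marking β-catenin for destruction. The stabilised β-catenin enters the nucleus and binds TCF/LEF factors on DNA, where it turns on targets such as *Axin2*. In ESCs TCF7L1 acts mainly as a repressor, also of pluripotency genes, and LEF1 and TCF7 are more often described as activators. The ESC medium held CHIR99021, an inhibitor of GSK3 that stabilises β-catenin without a ligand, and the EBs were formed without it, so the step from ESC to EB removed this input together with the other supplements.

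The libraries tested came from a pair of lines that carry a Cre recombinase activated by 4-hydroxytamoxifen (4-OHT). In the *Pcgf1* line the controls (ERT2-Cre;Pcgf1f/f, without 4-OHT; 4 ESC and 5 EB libraries) were set against *Pcgf1*-KO cells (Pcgf1delta/delta, with 4-OHT; 5 ESC and 5 EB libraries), which lack the subunit that defines the variant Polycomb complex PCGF1-PRC1 and in which the deletion was induced 2 days before EBs were formed. In the Ring1A-pm; Ring1B-cpm line, called the point mutant line here, the untreated cells (ERT2-Cre;Ring1apm/pm;Ring1b) already carried point-mutated *Ring1a* on both alleles, and 4-OHT added the mutation of *Ring1b*, the other catalytic subunit of PRC1 (Ring1bpm/pm), with 2 libraries in each of 4 groups. ESCs were grown with LIF, SU5402 (an FGF receptor inhibitor), PD184352 (a MEK inhibitor) and CHIR99021 on fibroblast feeders, and EBs for 2 days in low-attachment dishes without them. All mutant groups had 4-OHT and no control group had, so the drug and the mutation cannot be told apart. Nothing states that replicates were separate cultures, so the p-values measure only the spread between these libraries. In RNA of a whole culture, fewer cells that use a gene and less RNA of it per cell cannot be told apart.

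The promoter sequences of the gene that fell most from ESC to EB (*Sp5*), of the classical feedback target (*Axin2*) and of a factor that rose (*Lef1*) are given, since TCF/LEF factors bind a short element that can be looked for in them. Each run holds the 250 bases before the gene's start on the plus strand of build mm9, from the RefSeq promoter table (assembly GRCm38.p6), placed in mm9 by an exact match. The letters searched were CTTTGAT and CTTTGAA on both strands, the core bound by TCF/LEF, and capitals mark a match. The *Sp5* run lies at chr2:70312730-70312979, that of *Axin2* at chr11:108781413-108781662, and that of the first of 4 *Lef1* starts at chr3:130812965-130813214.

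Sp5: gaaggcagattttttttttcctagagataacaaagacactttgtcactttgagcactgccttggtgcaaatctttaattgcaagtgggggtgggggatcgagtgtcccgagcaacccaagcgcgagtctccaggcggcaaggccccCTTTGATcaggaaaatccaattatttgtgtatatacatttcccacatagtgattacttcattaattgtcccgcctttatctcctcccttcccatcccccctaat

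Axin2: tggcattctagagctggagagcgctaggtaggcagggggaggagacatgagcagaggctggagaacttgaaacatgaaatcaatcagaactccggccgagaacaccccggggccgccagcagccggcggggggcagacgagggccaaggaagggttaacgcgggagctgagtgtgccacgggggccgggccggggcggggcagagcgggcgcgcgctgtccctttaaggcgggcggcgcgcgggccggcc

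Lef1: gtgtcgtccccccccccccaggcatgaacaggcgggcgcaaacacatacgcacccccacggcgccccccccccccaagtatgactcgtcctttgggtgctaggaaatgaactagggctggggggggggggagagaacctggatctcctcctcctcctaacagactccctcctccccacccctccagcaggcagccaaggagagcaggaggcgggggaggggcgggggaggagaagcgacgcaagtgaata

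The *Sp5* window held 1 match, CTTTGAT, whose first base lies at position -104 from the start. No match was present in the 300-base windows of the other members, which says only that these letters are not in those windows. Of 32817 RefSeq windows of the same length, 2840 (8.65%) held a match.

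The series held 59 libraries, whose deposited values are TPM (transcript counts scaled for gene length and library total) that sum to 1000000 in each, so that read depth is unknown. Between 6039 and 9139 genes were listed at 0 in a library. *Pcgf1* itself was listed at 7.30 to 16.6 TPM in the controls of its line and at 0.627 to 2.77 TPM in the *Pcgf1*-KO libraries. The naive ESC markers (6 genes) summed to between 1765 and 3692 TPM in the ESCs of this line and to between 113 and 542 TPM in its EBs, while 4 formative epiblast markers summed to between 37.7 and 110 TPM and to between 323 and 2950 TPM. In the point mutant line the naive sums were 1486 to 2009 TPM in ESCs and 524 to 979 TPM in EBs. In the other 4 lines (32 libraries) the condition in the file name differs from the label in 21 libraries, and these lines were not tested.

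The first comparison asked what happened to the pathway's readouts when control cells of the *Pcgf1* line left the ESC medium. *Axin2*, which encodes a scaffold of the β-catenin destruction complex and so feeds back on the pathway, and *Sp5*, a zinc-finger repressor and direct target, both fell. *Nkd1*, which encodes a Dishevelled-binding antagonist, and *Lef1* both rose. In a test across all genes, 4 of 7 members passed the threshold (adjusted p under 0.05), 2 in each direction, where 24.9% of the 20594 genes tested did (limma, Benjamini-Hochberg adjustment, here and throughout).

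*Axin2* was listed at 25.5, 53.6, 52.8 and 20.3 TPM in control ESC replicates 1 to 4, and at 8.05, 10.1, 10.4, 5.36 and 5.22 TPM in control EB replicates 1 to 5. All EB libraries lay below all ESC libraries, although the ESC replicates themselves fell into a higher pair (2 and 3) and a lower pair (1 and 4). The mean fell from 38.1 ± 17.6 TPM (SD, n = 4) to 7.82 ± 2.48 TPM (SD, n = 5), a log2 fold change of -2.20 ± 0.39 (SE) with an adjusted p of 0.000388. Fold changes are on the scale of log2(TPM + 0.1), which understates changes of genes near 0.

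*Sp5* was listed at 5.65, 10.1, 8.93 and 3.21 TPM in control ESCs. In control EBs it stood at 0.137, 0, 0.541, 0.113 and 0.145 TPM, near or at 0 in every library. The log2 fold change was -4.75 ± 0.64 (adjusted p = 2.52e-05) and, with so little left in EBs, depends on the constant added before the logarithm. Adding 1 TPM instead of 0.1 gave -2.67 for *Sp5*.

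*Lef1* stood at 5.70, 7.37, 10.3 and 2.35 TPM in control ESCs and at 10.9, 42.9, 38.0, 48.9 and 44.0 TPM in control EBs. Replicate 1 of the EBs was the only one near the ESC range, and the groups did not overlap. The log2 fold change was 2.51 ± 0.69 (adjusted p = 0.0115). Without replicate 4 it was 1.96 and did not pass (adjusted p = 0.0687).

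*Nkd1* was listed low throughout, at 0.552, 1.62, 1.27 and 0.746 TPM in control ESCs and at 2.13, 3.38, 3.56, 3.10 and 2.42 TPM in control EBs. It rose by 1.47 ± 0.35 on the log2 scale (adjusted p = 0.00425), the opposite direction to *Axin2* and *Sp5*. Thus the 3 genes listed as targets did not share a direction.

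The other factors changed less. *Tcf7* averaged 101 ± 39.3 TPM in control ESCs and 166 ± 52.8 TPM in control EBs, *Tcf7l1* 80.1 ± 31.3 and 149 ± 84.8 TPM, and *Tcf7l2* 16.3 ± 7.23 and 10.8 ± 3.86 TPM (SD, n = 4 and 5). The ESC and EB ranges overlapped for all 3, and none passed when replicate number was ignored (adjusted p of 0.133, 0.215 and 0.284), although *Tcf7* did with median-of-ratios scaling (0.81, adjusted p = 0.0235) or quantile normalization (0.79, adjusted p = 0.0388). Libraries with the same replicate number deviated together, as did some with different numbers. With the number as a block all 7 members passed, where 43.9% of all genes did. *Tcf7* then had a log2 fold change of 0.80 (adjusted p = 6.1e-06), *Tcf7l1* of 0.89 (8.31e-05) and *Tcf7l2* of -0.51 (0.00737). In each of the 4 pairs of same-numbered libraries *Tcf7* and *Tcf7l1* were higher and *Tcf7l2* lower in the EB.

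**Figure D1:**
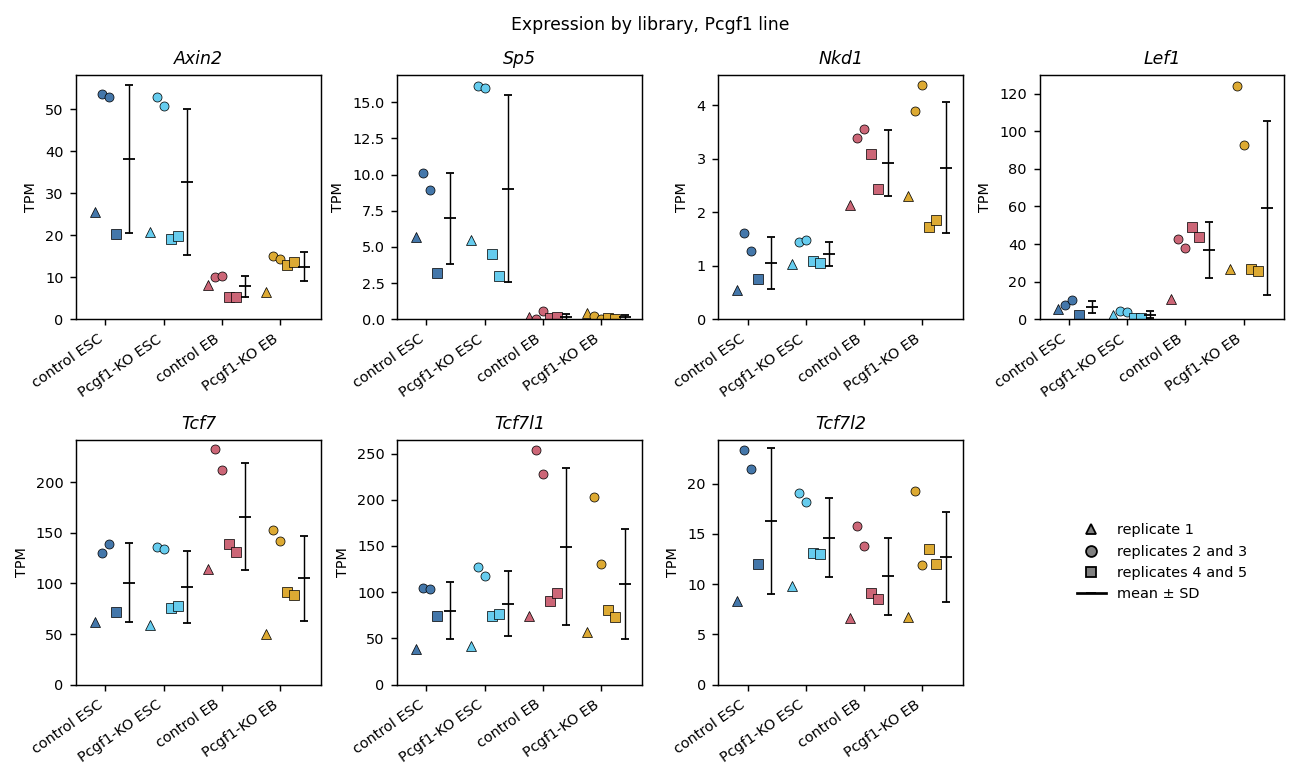
TPM of each member in the 19 libraries of the *Pcgf1* line (points), by group, with the mean ± SD beside them on a linear axis. *Axin2* and *Sp5* are lower in every EB than in every ESC library, while *Nkd1* and *Lef1* are higher in every control EB (2.13 to 3.56 and 10.9 to 48.9 TPM) than in any control ESC library.

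The libraries of this line fall into 3 series by the library identifier in their headers: replicate 1, replicates 2 and 3, and replicates 4 and 5. Levels of *Axin2* in control ESCs differed between series, 25.5 TPM in the first, 52.8 to 53.6 TPM in the second and 20.3 TPM in the third. Within each series the control EB to ESC difference kept its sign for every member, from -2.37 to -1.65 on the log2 scale for *Axin2*, from -5.25 to -3.86 for *Sp5*, from 1.22 to 1.78 for *Nkd1* and from 0.92 to 4.24 for *Lef1*. Fibroblast transcripts also changed with the stage. The 10 feeder markers summed to 195 to 285 TPM in control ESCs and to 24.5 to 46.3 TPM in control EBs, with 6 of 10 lower and 2 higher in EBs, and *Col1a1*, a fibroblast collagen, lay at 126 to 218 TPM against 3.74 to 9.25 TPM. *Lum* was at 0 in all libraries of 1 of the 4 groups and the other 9 in none, and the part of feeder RNA in the members' values was not tested.

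Among the other genes of the pathway, 28 of 92 passed in control EBs against control ESCs (24.9% of all genes did), 12 higher and 16 lower, with a median log2 fold change near that of all genes. With replicate number as a block the count was 47, 20 higher and 27 lower, and 43.9% of all genes passed. Of 19 Wnt ligands 2 were higher and 1 lower, of 12 receptors 3 and 2, and of 9 genes of the R-spondin arm 2 and 1. *Wnt8a*, an early embryonic ligand, was listed at 0 in every control ESC library and averaged 12.6 TPM in control EBs, *Wnt3* had a log2 fold change of 2.57 and *Wnt7b* fell by 2.78 on the log2 scale. The receptor gene *Fzd5* dropped from 141 to 20.9 TPM (log2 fold change of -2.67), while *Fzd2* (3.04) and *Fzd3* (1.21) rose. *Rspo1*, a secreted enhancer of Wnt signalling, rose from 0.934 to 13.7 TPM (log2 fold change of 3.80, adjusted p = 6.84e-06), and *Lgr4*, which encodes an R-spondin receptor, from 39.0 to 93.7 TPM (1.22), whereas *Rspo2* fell by 1.68. The call of *Wnt3* was lost without replicate 1, 2 or 3 (adjusted p of up to 0.16) and that of *Rspo2* without replicate 1, 4 or 5 (up to 0.164). Adding 1 TPM instead of 0.1 gave 1.26 for *Wnt3*, -1.32 for *Wnt7b* and -0.35 for *Rspo2*.

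Of 14 secreted or membrane antagonists 1 rose and 3 fell, including *Dkk3* (-2.10, adjusted p = 7.39e-07) and *Sfrp1* (-1.67), with *Sfrp2* higher (2.92). Of 13 cytoplasmic signalling genes 2 rose and 2 fell, among them the antagonist *Nkd2* (1.32), the APC-membrane linker *Amer1* (1.00) and the kinase gene *Csnk1a1* (-0.55). Of 10 nuclear cofactors 1 rose (*Ctbp1*, a corepressor, 0.53) and 1 fell (*Pygo1*, a partner of the β-catenin complex, -1.27). Neither of the ligand secretion genes passed. The calls of *Nkd2*, *Amer1*, *Csnk1a1*, *Ctbp1* and *Pygo1* were each lost without at least 1 replicate number, with an adjusted p of up to 0.0757, 0.0926, 0.0547, 0.126 and 0.168. *Pygo1* was at -0.76 with 1 TPM added.

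Other genes known as Wnt targets moved apart from one another as well. Of 8, *Cdx1*, a caudal-type homeobox gene, fell from 40.7 to 0.756 TPM (-5.56, adjusted p = 1.74e-08) and *Myc* rose from 6.26 to 57.8 TPM (2.97, adjusted p = 0.000165). The other 6 did not pass: the log2 fold changes were -0.22 for the mesoderm factor *T*, 1.91 for *Cdx4*, 1.91 for *Sp8*, -0.15 for *Ascl2*, -0.62 for *Tnfrsf19* and 0.59 for *Ccnd1*. The 5 pluripotency genes listed as repressed by TCF7L1, which are at the same time markers of the naive state, all fell, by 2.73 for *Esrrb*, 2.12 for *Nanog*, 2.76 for *Klf2*, 5.08 for *Tfcp2l1* and 3.14 for *Nr5a2* on the log2 scale.

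In *Pcgf1*-KO cells the same step was compared. *Axin2* and *Sp5* fell and *Nkd1* and *Lef1* rose here too, so that 4 of 7 members passed, where 18.3% of all genes did. *Lef1* went from 2.11, 4.64, 4.01, 0.451 and 0.635 TPM in the 5 KO ESC replicates to 26.6, 124, 92.7, 26.9 and 25.6 TPM in the KO EBs. Replicates 2 and 3 were the highest at both stages. Its log2 fold change was 4.71 ± 0.65 (adjusted p = 4.57e-05).

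*Axin2* went from 20.8, 52.8, 50.7, 19.2 and 19.8 TPM to 6.42, 15.0, 14.3, 12.9 and 13.7 TPM, with no overlap. Its log2 fold change was -1.28 ± 0.37 (adjusted p = 0.0193), and this call was lost without replicate 1, 2 or 3 (adjusted p of 0.0612 to 0.0762). *Sp5* was at 5.45, 16.1, 15.9, 4.54 and 3.01 TPM in KO ESCs and at 0.408, 0.212, 0, 0.0936 and 0 TPM in KO EBs (-5.20 ± 0.60, adjusted p = 5.92e-06). *Nkd1* had means of 1.22 ± 0.224 and 2.83 ± 1.22 TPM (SD, n = 5; log2 fold change of 1.07 ± 0.33, adjusted p = 0.0293), and its call was lost without any 1 of the 5 replicates. These losses are from fits without a block. With replicate number as a block *Axin2* (limma, adjusted p = 0.000296) and *Nkd1* (0.00204) passed in all libraries, where 36.8% of all genes did. *Tcf7*, *Tcf7l1* and *Tcf7l2* had log2 fold changes of 0.10, 0.27 and -0.24 and did not pass (adjusted p of 0.918, 0.752 and 0.694). The feeder markers summed to 149 to 225 TPM in KO ESCs and to 7.90 to 14.8 TPM in KO EBs, and their part was not tested.

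Of the 92 other pathway genes 13 rose and 18 fell in KO EBs against KO ESCs (24 and 33 with the block, where 36.8% of all genes passed). All 5 genes repressed by TCF7L1 fell again, by 1.52 for *Esrrb* to 3.68 for *Tfcp2l1* on the log2 scale. The mesoderm gene *T*, at 2.29 to 3.57 TPM in KO ESCs, had a log2 fold change of -2.50 (adjusted p = 0.000987).

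The effect of *Pcgf1* loss within ESCs was the next question. None of the 7 members passed (limma), where 0.641% of all genes did. The gene with the lowest p was *Lef1*, which averaged 6.44 ± 3.32 TPM in control ESCs and 2.37 ± 1.91 TPM in KO ESCs (log2 fold change of -1.70 ± 0.69, adjusted p = 0.437). It was lower in the KO library in 4 of 4 same-numbered pairs, by 0.66 to 2.16 on the log2 scale, but the groups overlapped. For *Axin2* and *Sp5* the 95% intervals of the log2 fold change ran from -1.07 to 0.56 and from -1.16 to 1.51. Of the other pathway genes 1 of 92 passed, the ligand gene *Wnt6* (2.16, adjusted p = 0.0278), and 11 with the block, where 5.31% of all genes passed, but 0 without any 1 replicate number.

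In EBs, *Pcgf1* loss was accompanied by lower *Tcf7* and *Tcf7l1* in each pair of same-numbered libraries, but no member passed when the numbers were ignored (0 of 7, 1 at an unadjusted p under 0.05, where 1.95% of all genes passed). *Tcf7* was at 114, 233, 212, 139 and 131 TPM in control EBs and at 50.4, 153, 142, 91.8 and 88.9 TPM in KO EBs. Each KO library lay below the control library of its number, while the ranges overlapped. The log2 fold change was -0.71 ± 0.33 (adjusted p = 0.397), and with replicate number as a block, where 10.4% of all genes passed, the adjusted p was 0.000131.

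*Tcf7l1* was at 74.3, 254, 228, 90.8 and 98.8 TPM in control EBs and at 57.0, 203, 131, 80.2 and 73.4 TPM in KO EBs. It was lower in 5 of 5 pairs, with a log2 fold change of -0.42 (adjusted p of 0.82, and of 0.0435 with the block). *Axin2* was lower in the KO EB of replicate 1 (-0.32 on the log2 scale), 0.52 higher in the series of replicates 2 and 3 and 1.31 higher in that of replicates 4 and 5, and its pooled log2 fold change was 0.67 ± 0.37 (adjusted p = 0.538). With the library series as a block, a setting chosen after seeing the data, *Axin2* passed (adjusted p = 0.0434), beside *Tcf7* and *Tcf7l1*, where 12.0% of all genes did. *Lef1* also turned between series, at 1.28, 1.41 and -0.82, with a pooled value of 0.49 ± 0.65 (adjusted p = 0.9). The feeder markers, at 24.5 to 46.3 TPM in control and 7.90 to 14.8 TPM in KO EBs, and the formative markers, at 1029 to 2950 and 323 to 1753 TPM, were lower with the deletion, and the naive markers, at 113 to 239 TPM in control and 200 to 542 TPM in KO EBs, were higher, with overlap of the groups for the formative and the naive sums. Their part in these values was not tested.

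Among the other pathway genes 6 rose and 1 fell in KO against control EBs (12 and 6 with the block, where 10.4% of all genes passed against 1.95% without it, and 2 to 6 in all without 1 replicate number). Those that rose were the ligand *Wnt7b* (2.12), the antagonist *Notum* (1.80), the cofactor *Pygo1* (2.21), the target *Cdx1* (1.52) and the pluripotency genes *Tfcp2l1* (1.52) and *Nr5a2* (1.16), and *Wls*, needed to secrete Wnt proteins, fell by 1.88. *Cdx1* stayed low in both, at 0.756 TPM on average in control and 2.84 TPM in KO EBs, against 40.7 TPM in control ESCs.

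Whether the effect of *Pcgf1* loss differed between EBs and ESCs was tested as the difference of the log2 fold changes. No member passed (limma, 0 of 7), nor did any of the 92 pathway genes, where 0.00486% of all genes did. *Lef1* had the largest difference, 2.19 ± 0.95 (adjusted p = 0.794). With the replicate block *Tcf7* passed, with a difference of -0.70 (adjusted p = 0.0143), where 1.62% of all genes did.

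**Figure D2:**
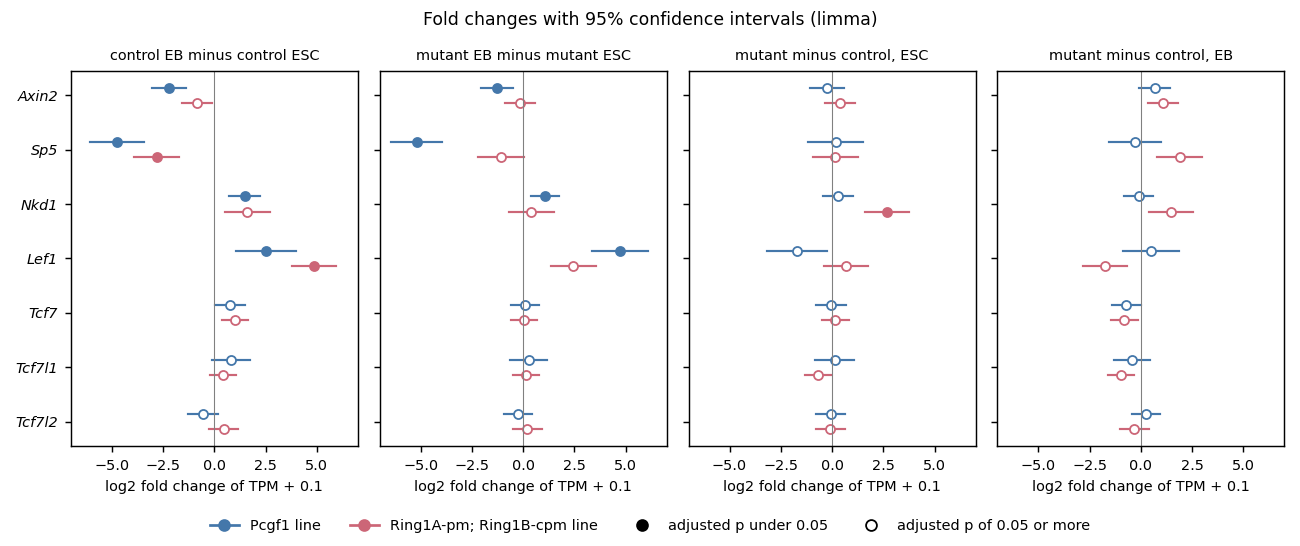
Log2 fold change of each member with its 95% confidence interval in the comparisons of each line, with filled points where the adjusted p was under 0.05. In control EBs against control ESCs *Sp5* lies furthest below 0 in both lines (-4.75 and -2.81) and *Lef1* furthest above (2.51 and 4.88).

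In the point mutant line the same was asked of the catalytic subunits of PRC1, with 2 libraries in each group. In untreated EBs against untreated ESCs *Sp5* fell and *Lef1* rose, and these 2 of 7 members passed, where 4.73% of the 20279 genes tested did. *Lef1* was at 1.93 and 0.892 TPM in ESCs and at 45.5 and 38.4 TPM in EBs (log2 fold change of 4.88 ± 0.46, adjusted p = 0.00267). *Sp5* was at 5.13 and 2.54 TPM in ESCs and at 0.290 and 0.621 TPM in EBs (-2.81 ± 0.47, adjusted p = 0.0209). The call of *Sp5* was lost without any 1 of the 8 libraries and that of *Lef1* without either untreated EB library.

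*Axin2* was at 15.4 and 7.83 TPM in untreated ESCs and at 6.28 and 5.98 TPM in untreated EBs (-0.83, adjusted p = 0.197). *Nkd1* (1.62, adjusted p = 0.104) and *Tcf7* (1.01, adjusted p = 0.0944) were higher in both EBs than in both ESCs without passing. With median-of-ratios scaling *Tcf7* did pass (1.03, limma, adjusted p = 0.0449). *Tcf7l1* and *Tcf7l2* had log2 fold changes of 0.41 and 0.45 (adjusted p of 0.448 and 0.447). The feeder markers summed to 37.8 to 43.1 TPM in untreated ESCs and to 30.5 to 34.4 TPM in untreated EBs of this line, a far smaller gap than in the *Pcgf1* line. Of the other 92 pathway genes 5 rose and 10 fell (1 to 5 in all without any 1 library), and the 5 genes repressed by TCF7L1 were again all lower, by 0.95 for *Klf2* to 3.19 for *Tfcp2l1* on the log2 scale. *Cdx1* fell by 6.16, while *Sp8* (2.12) and *Ascl2* (1.39) rose.

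In 4-OHT treated cells of this line the same step moved no member past the threshold (limma, 0 of 7), where 0.133% of all genes passed. *Lef1* went from 2.28 and 2.03 TPM to 8.17 and 18.2 TPM (2.45 ± 0.46, adjusted p = 0.152) and *Sp5* from 4.01 and 4.13 TPM to 2.00 and 1.74 TPM (-1.09, adjusted p = 0.515), both without overlap. *Axin2* stood at 15.9 and 13.3 TPM in treated ESCs and at 13.0 and 13.4 TPM in treated EBs. None of the 92 other pathway genes passed.

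**Figure D3:**
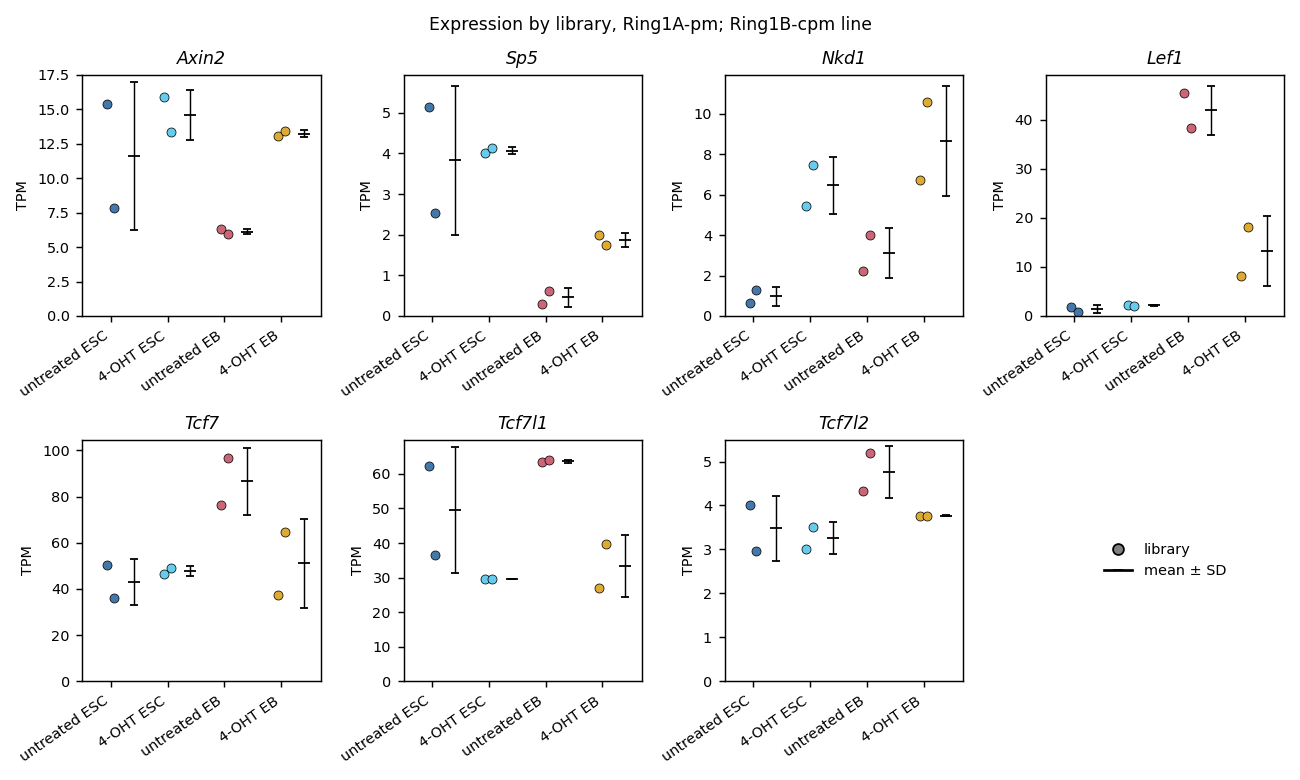
TPM of each member in the 8 libraries of the point mutant line (points), by group, with the mean ± SD beside them on a linear axis. *Nkd1* is higher in both treated ESC libraries (5.45 and 7.47 TPM) than in the untreated ones (0.632 and 1.30 TPM), and in EBs *Lef1* lies at 8.17 and 18.2 TPM with treatment and at 45.5 and 38.4 TPM without.

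Treated against untreated ESCs of this line differed in *Nkd1*, the 1 member of 7 that passed, where 2.54% of all genes did. It was at 0.632 and 1.30 TPM in untreated and at 5.45 and 7.47 TPM in treated ESCs, a log2 fold change of 2.68 ± 0.46 (adjusted p = 0.0329). The call was lost without any 1 of the 8 libraries and with quantile normalization (2.11, adjusted p = 0.0681), but no untreated library reached a treated one. Marker sums differed with the treatment here too, except that those of the formative markers overlapped. The feeder markers summed to 37.8 to 43.1 TPM in untreated and to 65.1 to 68.8 TPM in treated ESCs, 5 primitive streak markers to 11.4 to 14.2 and to 21.5 to 22.6 TPM (2 of 5 passed, both higher), formative markers to 44.5 to 88.9 and to 85.0 to 96.0 TPM and naive markers to 1766 to 2009 and to 1486 to 1750 TPM. Their part in the *Nkd1* value was not tested. *Tcf7l1* was at 62.4 and 36.6 TPM in untreated and at 29.6 and 29.5 TPM in treated ESCs (-0.69, adjusted p = 0.253). Over all genes the median log2 fold change was 0.12 in treated ESCs and 0.10 in treated EBs, so the values of this line are to be read against a small general shift. Of the other pathway genes 4 rose, the ligands *Wnt11* (2.59), *Wnt4* (2.70) and *Wnt7a* (3.14) and the enhancer *Rspo1* (1.58), and *Klf2* fell by 0.93, and none of these 5 calls held without any 1 library.

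In EBs of this line none of the 7 members passed (limma), where 4.53% of all genes did. With 2 libraries in each group, treated and untreated values can readily lie apart without a change. The directions below did not pass, so they are no result about the members. The targets were listed higher with treatment. *Axin2* was at 6.28 and 5.98 TPM without and at 13.0 and 13.4 TPM with 4-OHT (1.10, adjusted p = 0.0998), *Sp5* had a log2 fold change of 1.89 (adjusted p = 0.0704) and *Nkd1* of 1.46 (adjusted p = 0.127). The factors were listed lower, also without passing. *Lef1* had a log2 fold change of -1.77 (adjusted p = 0.0784), *Tcf7l1* of -0.95 (0.0985), *Tcf7* of -0.81 (0.155) and *Tcf7l2* of -0.32 (0.589). Naive markers summed to 942 to 979 TPM in treated and to 524 to 596 TPM in untreated EBs, formative markers to 125 to 145 and to 425 to 657 TPM, and feeder markers to 74.6 to 74.8 and to 30.5 to 34.4 TPM. Their part was not tested.

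Of the 92 other pathway genes 17 rose in treated EBs and 1 fell, the receptor gene *Fzd7* (-1.45). Those that rose included 8 of 19 Wnt ligands, for example *Wnt5b* (from 0.872 to 3.89 TPM) and *Wnt7b* (from 0.505 to 2.67 TPM), and 3 antagonists, with *Kremen2* from 1.44 to 8.83 TPM. The targets *Cdx1* (from 1.03 to 25.3 TPM, adjusted p = 0.0146) and *T* (from 0.248 to 2.64 TPM, adjusted p = 0.043) rose as well, and so did *Nanog* (1.16). The count of 18 rests on all libraries together, since without any 1 library it lay between 0 and 2. Whether the treatment effect differed between EBs and ESCs was tested as well. No member (limma, 0 of 7) and no other pathway gene (0 of 92) passed, where 0.00986% of all genes did. *Lef1* had a difference of -2.43 ± 0.65, with a 95% interval from -3.96 to -0.91 (adjusted p = 0.528).

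The make-up of the TCF/LEF transcripts was read from the TPM values, which are per transcript length and so comparable between genes. In control ESCs of the *Pcgf1* line *Tcf7* made up 49.7% and *Tcf7l1* 39.2% of the summed TPM of the 4 factors on average, *Tcf7l2* 7.85% and *Lef1* 3.24% ± 1.48 (SD, n = 4). The sum was 204 TPM on average in control ESCs, 201 in KO ESCs, 363 in control EBs and 286 in KO EBs. The *Lef1* share was 1.12% ± 0.741 in KO ESCs, 10.7% ± 5.23 in control EBs and 18.8% ± 5.98 in KO EBs (SD, n = 5). In the point mutant line the *Lef1* share averaged 1.40% and 2.61% in untreated and treated ESCs, and 21.4% and 12.6% in untreated and treated EBs. *Tcf7* and *Tcf7l1* together were the larger part in every group, and on the group means *Lef1* exceeded *Tcf7l2* in EBs and not in ESCs. These shares were not tested.

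**Figure D4:**
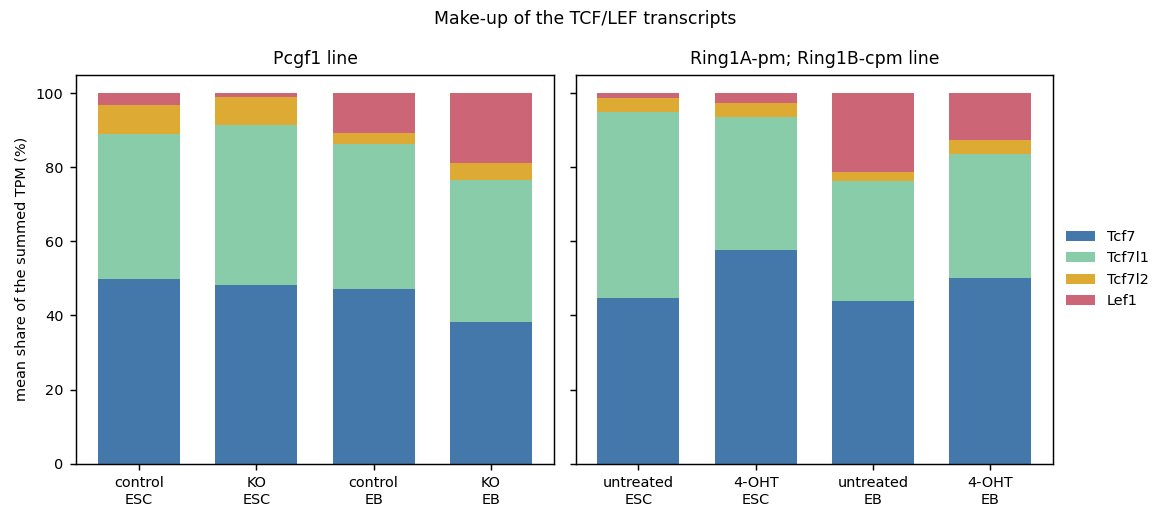
Mean share (%) of *Tcf7*, *Tcf7l1*, *Tcf7l2* and *Lef1* in their summed TPM for the groups of the *Pcgf1* line (n = 4 or 5) and of the point mutant line (n = 2). The *Lef1* part of the bar is 3.24% in control ESCs and 10.7% in control EBs of the *Pcgf1* line, and 1.40% and 21.4% in the untreated groups of the other line.

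In the 4 lines in which file names and labels differ (Ring1a/b, Pcgf2/4, Pcgf3/5 and Pcgf6 deletions under the same Cre, the first with *Ring1a*-/- controls), the values are given as listed, without a test. Libraries whose file name says EB had *Lef1* at 13.9 to 20.1 TPM in the Pcgf3/5 line and at 18.5 to 20.6 TPM in the Pcgf6 line, and higher in the Pcgf2/4 line, up to 35.5 TPM. Those whose file name says ESC had it at 1.47 to 1.92, 0.727 to 1.59 and 1.03 to 1.52 TPM in that order. *Sp5* lay the other way, at 0 to 0.630 TPM in EB-named and at 1.70 to 8.59 TPM in ESC-named libraries of these lines. Sorted by their labels instead, libraries of both levels stood under the same stage.

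The Ring1a/b line differed in *Axin2* and *Nkd1*. The 2 libraries labelled control EB (file names of mutant ESCs) had *Axin2* at 47.0 and 51.0 TPM and *Nkd1* at 7.66 and 7.77 TPM, and the 2 labelled mutant EB (also so named) had *Axin2* at 45.0 TPM in both and *Nkd1* at 6.81 and 6.70 TPM. The libraries labelled control ESC (also so named) had *Axin2* at 15.8 and 16.4 TPM and *Nkd1* at 1.54 and 1.60 TPM. Those labelled mutant ESC (file names of control EBs) had *Axin2* at 6.76 and 5.37 TPM, *Nkd1* at 4.39 and 3.66 TPM and *Lef1* at 44.7 and 43.7 TPM. The naive markers summed to 2017 to 2163 TPM in the 4 ESC-named libraries of this line and to 183 to 1024 TPM in the 4 EB-named ones, and the formative markers to 72.1 to 109 and to 378 to 1047 TPM. The libraries labelled control EB, with naive sums of 2017 and 2074 TPM and formative sums of 104 and 109 TPM, stood with the ESC-named ones, and those labelled mutant ESC, at 183 and 184 TPM and at 1047 and 1007 TPM, with the EB-named ones. In the other 3 lines the naive sums were 759 to 1725 TPM in ESC-named and 246 to 657 TPM in EB-named libraries, and the formative sums 45.2 to 65.9 and 395 to 1029 TPM. The marker sums thus separated by the stage in the file name in all 4 lines and not by that in the label. Groups were taken from the labels alone, so no effect of these deletions is given.

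**Figure D5:**
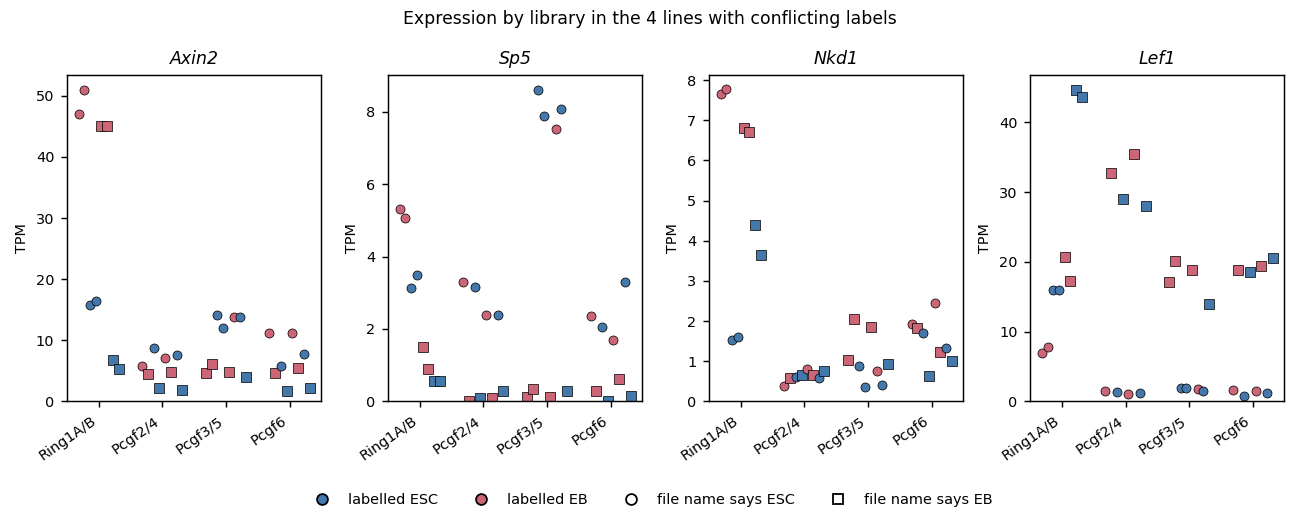
TPM of *Axin2*, *Sp5*, *Nkd1* and *Lef1* in each of the 32 libraries of the other 4 lines, coloured by the stage in the label and shaped by the stage in the file name. Colours mix at each level in the Pcgf2/4, Pcgf3/5 and Pcgf6 lines, where *Lef1* is at 13.9 TPM or more in the libraries named EB and at 1.92 TPM or less in those named ESC.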

How the data were processed

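RNA-seq libraries of mouse ESCs and EBs were mapped to mm9 and counted on exons by the authors with STAR 2.5.2b, and the deposited values are TPM per gene, without replicates pooled. The step from counts to TPM is not given in the sources used here, and neither is the depth. DESeq2 appears among the tools in the submitters' processing notes and was not used here.

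Groups were taken from the labels. In 4 lines the file names contradict the labels for 21 of 32 libraries, and those lines entered no test. For 1 *Pcgf1*-KO EB library the title gives replicate 4 and the characteristics replicate 5. The title was followed, which touches the pairing and not the group. No pair of the 59 libraries (1711 pairs) held identical values.

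Per line, log2(TPM + 0.1) of all genes above 0 in at least 1 library was fitted on 4 groups with limma 3.58.1 (R 4.3.3), with a variance trend and Benjamini-Hochberg adjusted p-values over all genes (threshold 0.05). All 4 groups share 1 estimate of the spread. Figures and summaries used Python 3.11.15. The members, the pathway and marker lists were chosen with earlier results of these data known. Beyond the 7 members, the text names the up to 3 genes per list with the lowest adjusted p in control EBs against control ESCs of the *Pcgf1* line, all further Wnt targets and TCF7L1-repressed genes, and the 5 genes most like *Axin2* and *Lef1*. Other pathway and marker genes named with a mutant comparison were chosen after their values were seen.

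In the *Pcgf1* line same-numbered libraries of different groups deviated together from their group means (Pearson's r of 0.317 to 0.653 over 18 pairs of libraries). Libraries of different numbers within a library series did so as well. Control EB replicate 2 had an r of 0.412 with control ESC replicate 3 and of 0.317 with replicate 2. In other cases the same number was higher, as for KO EB replicate 5 with control EB replicates 5 (0.653) and 4 (0.605). The r values thus do not tell pairing by number from a shared series. The number was used as a block, and blocked values are given beside the results they change. The alternatives were an added constant of 1, a mean of at least 1 TPM, median-of-ratios and quantile scaling, no variance trend, only the groups compared, the blocks, and leaving out each replicate. The fit was also run on data with known changes, for control EBs against control ESCs of each line. In the *Pcgf1* line it recovered 40% of the changes of 1 on the log2 scale and 77% of those of 2. In the point mutant line it recovered 32% and 71%. False calls were 5.65% and 2.83% in that order of lines. This was a single draw in which each library varied independently, without the deviations that libraries of a number or series shared. Changes were put only in genes that were not low on average. The percentages are thus not error rates of the tests reported here.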

Additional observations from a re-analysis of the deposited data

Results flagged for a closer look

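In 28 groups of member values with at least 4 libraries, 3 had 1 library far from the others of its group (chance alone gives about 1 in 20 such groups). Replicate 3 of the control EBs of the *Pcgf1* line had *Sp5* at 0.541 TPM, with the next library at 0.145 TPM. Replicate 1 of the same group had *Lef1* at 10.9 TPM, with the next at 38.0 TPM. Replicate 1 of the *Pcgf1*-KO EBs had *Axin2* at 6.42 TPM, with the next at 12.9 TPM. The *Lef1* and *Axin2* values are both from the first library series, which holds no other library of these groups.

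In 3 cases every same-numbered pair of libraries moved one way in 1 setting and the opposite way in another. No rate of such cases over all genes was worked out. With 2 pairs, as in the point mutant line, they can readily arise without a change. The smallest *Tcf7l1* difference between paired ESC libraries of the *Pcgf1* line was 0.0147 on the log2 scale. In the point mutant line *Lef1* was higher with 4-OHT in ESCs (log2 fold change of 0.67) and lower in EBs (-1.77). This difference was tested as an interaction and did not pass (limma, adjusted p = 0.528). In the *Pcgf1* line *Tcf7l1* was higher with the deletion in ESCs (0.12) and lower in EBs (-0.42), and the interaction did not pass (limma, adjusted p = 0.986). In control EBs against control ESCs *Tcf7l2* was lower in the *Pcgf1* line (-0.55) and higher in the point mutant line (0.45), a difference that was not tested.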

How the results depend on the processing

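In the *Pcgf1* line the replicate number was fitted as a block, although the correlations do not tell it from the library series. The block raised the members past the threshold from 4 to 7 in control EBs against ESCs, from 0 to 2 in KO against control EBs and from 0 to 1 in the interaction. The pathway genes rose from 28 to 47, 31 to 57 (KO EBs against ESCs), 1 to 11 (KO against control ESCs), 7 to 18 and 0 to 3. The share of all genes past the threshold rose as well, from 24.9% to 43.9%, 18.3% to 36.8%, 0.641% to 5.31%, 1.95% to 10.4% and 0.00486% to 1.62%. The library series as a block, chosen after seeing the data, gave 7, 3 and 1 members and 50, 58, 13, 23 and 5 pathway genes. The block changed no other call of a member in this line. Only the groups compared gave 2 pathway genes in each of KO against control ESCs and EBs, adding 1 TPM gave 3 in ESCs, and quantile normalization gave 2 in ESCs and 1 in the interaction. Leaving out a replicate gave 3 to 4, 2 to 3, 0, 0 and 0 members and 21 to 26, 24 to 27, 0, 2 to 6 and 0 pathway genes. For the point mutant line, whose shared numbers (2 pairs) may be numbers only, same-numbered libraries had deviations correlated at 0.258 to 0.381, and a replicate block added *Nkd1* in untreated EBs against ESCs (adjusted p = 0.0145) and gave 1 member, again *Nkd1*, in treated against untreated EBs (0.0204), and 25, 13 and 25 pathway genes in place of 15 (untreated EBs against ESCs), 5 (ESCs) and 18 (EBs), while the shares of all genes became 9.95%, 6.54% and 10.1%. Only the groups compared left 1 member in untreated EBs against ESCs and 0 in treated against untreated ESCs, with 0 pathway genes in ESCs and EBs. Quantile normalization gave 0 members in ESCs and 1 in EBs, with 1, 1 and 8 pathway genes in treated EBs against ESCs, ESCs and EBs. The median-of-ratios scaling gave 1 member in EBs, a mean of at least 1 TPM gave 2, and no variance trend gave 10 pathway genes in ESCs. Leaving out a library gave 0 to 1, 0, 0, 0 and 0 members and 1 to 5, 0, 0, 0 to 2 and 0 pathway genes. The causes were not tested.

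Of 1355 repeats of single-gene values 1246 kept direction and side of the threshold, 52 lost and 35 gained the call, and 22 reversed, none of them called. Leaving out replicates reversed values of the *Pcgf1* line over these log2 ranges: *T* from -0.48 to 0.091 and *Ascl2* from -0.35 to 0.011 (control EBs against ESCs), *Tcf7* from -0.12 to 0.0051 and *Tcf7l2* from -0.22 to 0.031 with 0.0084 between (KO against control ESCs), *Sp5* from -0.75 to 0.33 and *Nkd1* from -0.22 to 0.057 (KO against control EBs), and *Sp5* from -0.86 to 0.28 (interaction). The series block reversed *Tcf7* in ESCs (0.00075), and quantile normalization *Sp5* in EBs (0.094). In the point mutant line the ranges were -0.35 to 0.44 for *Tcf7* and -0.13 to 0.43 for *Tcf7l1* (treated EBs against ESCs), with -0.0025 for *Tcf7* between, -0.083 to 0.88 for *Axin2*, -0.33 to 0.66 for *Sp5*, -0.074 to 0.40 for *Tcf7* and -0.29 to 0.13 for *Tcf7l2* with 0.03 between (treated against untreated ESCs), and -0.65 to 0.12 for *Tcf7l1* with 0.01 between (interaction). Quantile normalization reversed *Sp5* (-0.28) and *Lef1* (-5.8e-05) in those ESCs. Read depth is unknown, so no limit of detection can be given for values near 0 such as those of *Sp5* in EBs.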

Other observations

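Over the 19 libraries of the *Pcgf1* line, among 13400 genes with a mean of at least 1 TPM, the genes whose log2(TPM + 0.1) followed that of *Axin2* most closely were *Stat5b* (Pearson's r = 0.971), *Trim25* (0.966), *Gna13* (0.965), *Dsp* (0.965) and *Ticrr* (0.964). For *Lef1* they were *Elmo1* (0.963), *Enpp3* (0.962), *Fam3c* (0.959), *Arrdc3* (0.957) and *Mctp2* (0.956). The libraries fall into ESCs and EBs and into 3 library series, which all these genes share, so the r values describe these libraries and carry no test. Of these genes only *Enpp3* is given for the point mutant line (2 libraries in each group), so its values do not speak for the others. In that line *Enpp3* was 4.09 higher on the log2 scale in untreated EBs than in untreated ESCs. It fell by 1.81 with 4-OHT in EBs (adjusted p = 0.048, limma), where 4.53% of all genes passed. No rule set beforehand picked *Enpp3* from the list, so its values are no second result for *Lef1*.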
